A study of Homo sapiens with 30 samples.

Results

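The tight junction genes described here were 9 genes of the epithelial barrier, CLDN1, CLDN3, CLDN4, CLDN7, OCLN, F11R, TJP1, TJP3 and CGN, measured by RNA sequencing in UMUC1 bladder cancer cells. They were chosen by name, and each had 1 row in both gene tables, among 58288 genes in the first experiment's table and 20073 in the other. The series held 30 libraries in 10 groups of 3, from 2 experiments. UMUC1 is an established human line that, according to the series record, has lost the function of UTX, the histone H3K27 demethylase encoded by KDM6A.

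In the first experiment the cells stably expressed wild type UTX (UTX), UTX with the changes H1146A and E1148A in its catalytic site (HEAA) or the empty vector (EV), all from pSIN-puro. They were harvested on day 3 after plating, either in serum-free sphere medium with B27 lacking vitamin A, FGF2 and EGF at 20 ng/ml each, or in full medium, which was MEM with 10% serum. The groups are called UTX_sphere, HEAA_sphere, EV_sphere, UTX_full, HEAA_full and EV_full. In the second experiment all cells were in full medium on day 3 and carried a pBabe-puro vector for FGFR3, a receptor tyrosine kinase, either with the bladder cancer mutation S249C or as wild type. On top of this they carried wild type UTX or nothing in pCDH-blasticidin, which gave UTX_FGFR3S249C, EV_FGFR3S249C, UTX_FGFR3WT and EV_FGFR3WT. No group of the second experiment lacked an FGFR3 vector. Library kits differed between the experiments (Illumina TruSeq in the first, NEBNext Ultra II RNA in the second), and the tables were scaled and tested apart. Whether replicates came from separate cultures is not given in the labels. A p-value here reflects the spread among samples within groups, estimated over all groups of an experiment, and that spread may be technical.

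Tight junctions seal the space between epithelial cells near their apical border. Claudins form the strands and set which ions and solutes pass, occludin (OCLN) and the junctional adhesion molecule JAM-A (F11R) span the membrane beside them, and the ZO proteins (TJP1, TJP3) and cingulin (CGN) anchor them to actin on the inner face. In the urothelium, the lining of the bladder, these junctions are known for keeping urine out of the tissue.

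In the first experiment the libraries held 23749352 to 40111234 counts, and those of the second held 21672408 to 28290664. KDM6A averaged 859.8 ± 14.9 CPM in UTX_sphere, 942 ± 15.3 in HEAA_sphere and 8.17 ± 0.783 in EV_sphere (SD, n = 3 each), and the range over all UTX and HEAA libraries was 568 to 956 CPM, with every EV library at or below 17.8 CPM. Reads from the vector and from the cells' own KDM6A were counted together. FGFR3 averaged 2587 ± 44.2 and 2322 ± 109 CPM with the S249C vector, in UTX and EV cells, and 1243 ± 47.4 and 1300.5 ± 74.9 with the wild type vector. All 6 epithelial markers averaged at least 1 CPM in both experiments, EPCAM and CDH1 among them, and 4 of 7 urothelial markers did, with the urothelial surface protein UPK3A at 0 in every library of the first experiment. Leukocyte markers summed to at most 16.8 CPM, endothelial markers to 4.35 CPM and fibroblast markers to 56.5 CPM in any library. Of these lists, 1 of 4 leukocyte, 2 of 4 endothelial and 2 of 5 fibroblast markers averaged at least 1 CPM in the first experiment and 2, 1 and 2 in the second, and PTPRC, the marker of all leukocytes, stayed under 1 CPM in every group. Libraries of 1 group were compared by the mean chi-square per gene of their counts, over genes with at least 20 counts in a pair, where a value near 1 would be sampling noise alone, and 3 libraries stood apart. EV_sphere replicate 2 had 12.3 and 12.1 against the others of its group, UTX_FGFR3S249C replicate 3 had 11.6 and 10.0, and EV_FGFR3S249C replicate 1 had 11.4 and 11.4. All other pairs had between 2.03 and 6.84. Without EV_sphere replicate 2 no member's call changed. Without UTX_FGFR3S249C replicate 3 UTX raised 7 members beside S249C in place of 6, TJP1 being added. Without EV_FGFR3S249C replicate 1 the calls of CLDN1 by S249C in EV cells (-0.13, adjusted p = 0.115) and of OCLN (0.34, adjusted p = 0.0746) and CGN (0.39, adjusted p = 0.0651) in the UTX by FGFR3 interaction were lost, and no other member's call changed without that library.

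Promoters are shown for the members with a single start in the RefSeq table, whatever their change with UTX. RefSeq (GRCh38.p14) listed 1 start for CLDN1, CLDN3, CLDN4 and CGN, 2 each for CLDN7, OCLN and TJP3, and 4 for TJP1. F11R had no entry there. Each sequence is the 250 bases before the start, 5′ to 3′ on the gene's strand, from chr3:190322447-190322696 (minus strand), chr7:73770271-73770520 (minus), chr7:73830746-73830995 (plus) and chr1:151511137-151511386 (plus). Capitals mark matches on either strand to the AP-1 motif TGANTCA, the grainyhead motif AACNGGTT, the E-box CACCTG bound by ZEB and SNAIL factors, and the SP1 motif GGGCGG. The motifs were chosen with the sequences in view.
CLDN1: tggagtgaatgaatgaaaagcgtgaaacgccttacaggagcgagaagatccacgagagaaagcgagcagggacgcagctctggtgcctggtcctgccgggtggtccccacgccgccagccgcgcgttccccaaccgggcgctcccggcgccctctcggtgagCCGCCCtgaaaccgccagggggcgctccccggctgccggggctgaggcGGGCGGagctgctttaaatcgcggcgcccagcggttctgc
CLDN3: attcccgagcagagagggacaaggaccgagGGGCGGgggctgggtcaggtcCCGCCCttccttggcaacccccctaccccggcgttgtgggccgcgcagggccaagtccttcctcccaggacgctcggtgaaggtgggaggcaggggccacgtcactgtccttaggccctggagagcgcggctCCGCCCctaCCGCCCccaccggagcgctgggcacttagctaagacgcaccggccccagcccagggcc
CLDN4: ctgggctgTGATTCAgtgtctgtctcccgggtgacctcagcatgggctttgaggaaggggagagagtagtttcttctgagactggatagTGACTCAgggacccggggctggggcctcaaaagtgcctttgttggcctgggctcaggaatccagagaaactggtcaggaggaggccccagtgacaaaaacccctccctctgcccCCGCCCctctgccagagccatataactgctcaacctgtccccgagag
CGN: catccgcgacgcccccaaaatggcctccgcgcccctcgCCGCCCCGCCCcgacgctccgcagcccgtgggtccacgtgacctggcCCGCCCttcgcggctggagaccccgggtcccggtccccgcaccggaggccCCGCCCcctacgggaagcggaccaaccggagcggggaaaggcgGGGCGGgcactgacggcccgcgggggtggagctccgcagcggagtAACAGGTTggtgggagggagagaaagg
The CLDN4 window held 2 matches to TGANTCA, in which any middle base counts. They began 242 (TGATTCA) and 161 (TGACTCA) bases before the start, and 141 of 35116 such windows in the table (0.402%) held 2 or more. At least 1 AP-1 match was in 6.57% of windows. The CGN window held 1 grainyhead match, 27 bases before the start, as 1.49% of windows did. CACCTG was in none of the 4 windows and in 17.5% of all. SP1 matches numbered 5 in CGN (2 of them overlapping), 4 in CLDN3, 2 in CLDN1 and 1 in CLDN4, and 42.6% of windows had at least 1. GC content was 76.0% in CGN, 71.6% in CLDN3, 68.8% in CLDN1 and 58.8% in CLDN4, against a median of 58.0%. The CLDN4 window had 4 CpG dinucleotides, the CLDN1 window 28, the CLDN3 window 19 and the CGN window 32, against a median of 11. A match is only a match of letters and was not linked to any value here.

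In the GRCh38 annotation (GENCODE v29) CLDN3 (chr7:73768997-73770270, minus strand) and CLDN4 (chr7:73799542-73832693, plus strand) are neighbours. CLDN1 lies at chr3:190305701-190322475 (minus), CLDN7 at chr17:7259903-7263983 (minus) and OCLN at chr5:69492292-69558104 (plus). F11R lies at chr1:160995211-161021348 (minus), TJP1 at chr15:29699367-29968865 (minus), TJP3 at chr19:3708109-3750813 (plus) and CGN at chr1:151510510-151538692 (plus). In this annotation CLDN4 and CGN begin before the windows shown above, which therefore lie inside those genes and need not be their only promoters. All 9 are protein-coding genes, and all 9 passed the filter on low counts in both tables.

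Levels are CPM, counts scaled to library size with TMM factors, and library values are listed in the order of replicates 1, 2 and 3. Between genes, levels were compared per kilobase of exon (GENCODE v29). In UTX_full cells CLDN1 was highest at 116 CPM per kb, followed by TJP1 at 78.9 and F11R at 68.0. In EV_full cells CLDN1 was at 213 CPM per kb, TJP1 at 86.5, CLDN7 at 84.1, CLDN4 at 67.6 and F11R at 54.9. CGN and OCLN were far lower there, at 6.52 and 6.52 CPM per kb, and CLDN3 and TJP3 were lowest at 2.36 and 1.83. The order in the second experiment was another one: in EV_FGFR3WT cells CLDN4 led at 88.0 CPM per kb, then CLDN7 at 80.1, TJP1 at 61.6 and F11R at 61.3, with CLDN1 the fifth at 39.3. CLDN1 was first in all 6 groups of the first experiment and CLDN4 in all 4 of the second, and CLDN3 and TJP3 were among the 3 lowest in every group. With the longest coding transcript as the length, TJP1 changed places with its neighbours in some groups and OCLN passed CGN in EV_full, and the first places stayed. Kit, vectors and scaling differed between the tables, so this difference in level was not tested.

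**Figure D1:**
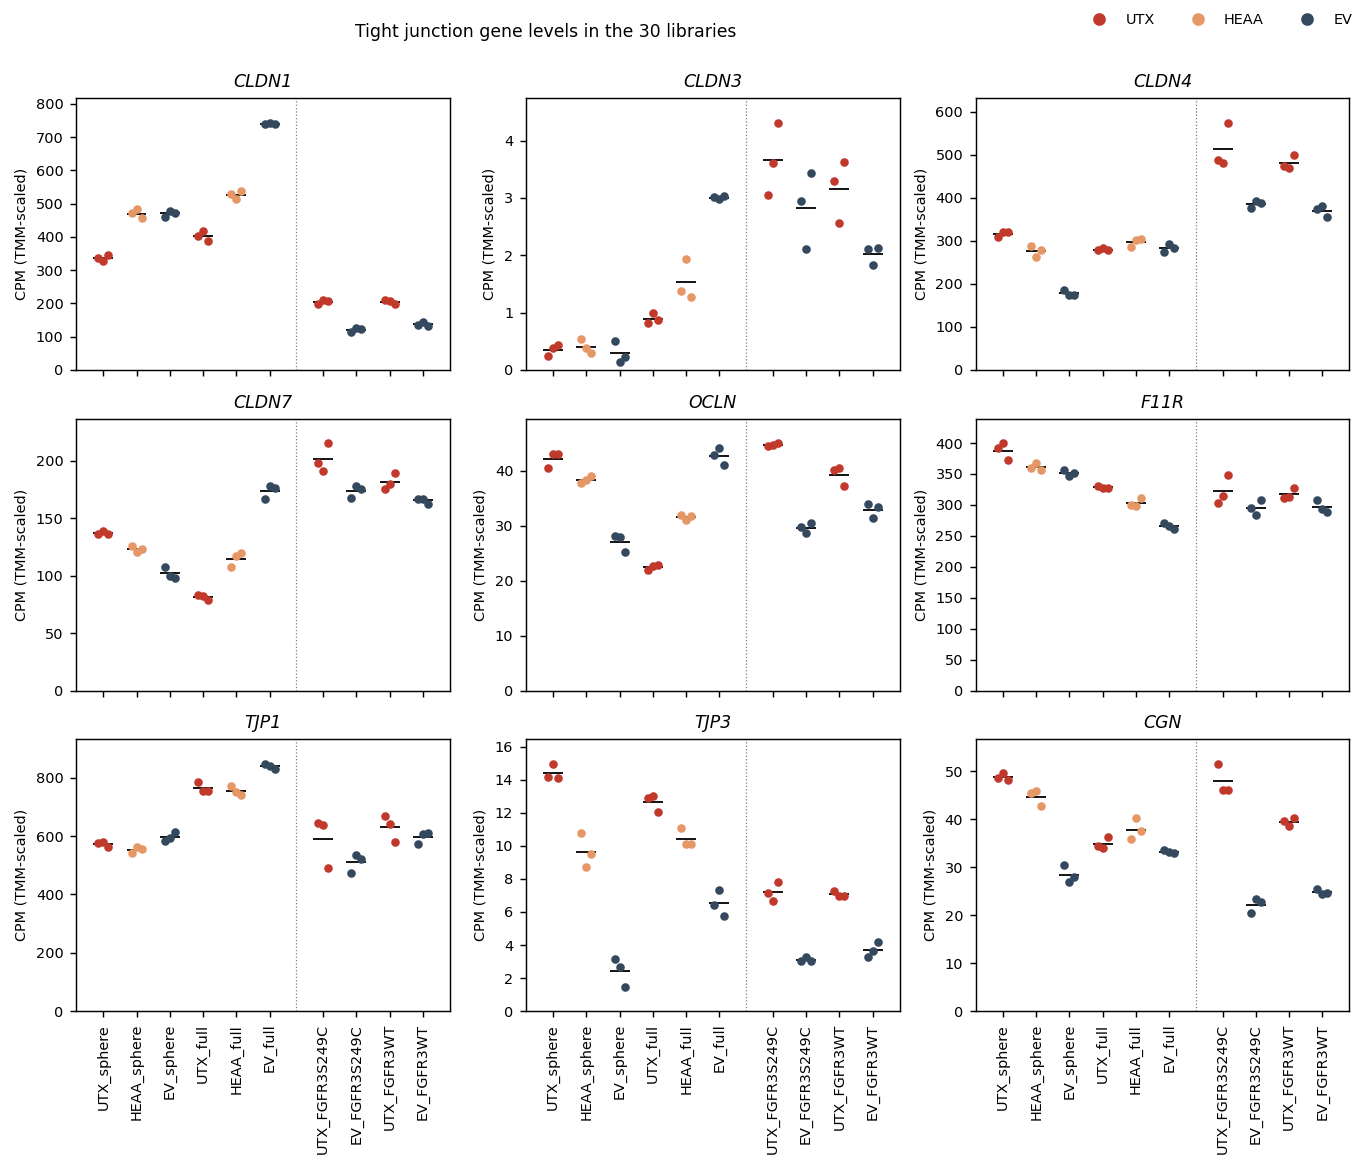
Level of each of the 9 tight junction genes (CPM, TMM-scaled) in all 30 libraries; points are libraries, black lines are group means, and the dotted line separates the first experiment (left) from the second (right). CLDN1 had its highest values in EV_full (738 to 743 CPM), TJP3 its lowest in EV_sphere (1.49 to 3.14 CPM), and CLDN3 stayed at or below 4.31 CPM in every library.

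Over the 6 groups of the first experiment the members followed different orders. CLDN7 and OCLN shared 1 order from low to high, UTX_full, EV_sphere, HEAA_full, HEAA_sphere, UTX_sphere and EV_full. Neighbouring groups in that order did not overlap, except EV_sphere with HEAA_full for CLDN7 and UTX_sphere with EV_full for OCLN. CLDN1 was lowest in UTX_sphere and highest in EV_full, a 2.20-fold range, with HEAA_sphere and EV_sphere overlapping. CLDN4 ran from EV_sphere to UTX_sphere over a 1.77-fold range, and HEAA_sphere, UTX_full, EV_full and HEAA_full overlapped in between. TJP3, from EV_sphere to UTX_sphere, had a 5.93-fold range, with overlap of HEAA_sphere and HEAA_full alone. CGN ran from EV_sphere to UTX_sphere over 1.71-fold and F11R from EV_full to UTX_sphere over 1.46-fold. TJP1 was lowest in HEAA_sphere and highest in EV_full, over 1.52-fold, and its 3 sphere groups lay below its 3 full medium groups. CLDN3 had the widest range, 10.4-fold between EV_sphere and EV_full, on few counts, and its 3 sphere groups overlapped.

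Over the 4 groups of the second experiment the ranges were narrower for 8 members and wider for CGN, which ran from EV_FGFR3S249C to UTX_FGFR3S249C over 2.16-fold without any overlap of neighbours. UTX_FGFR3S249C had the highest mean of 8 members, all but TJP1. For CLDN1, CLDN3, CLDN4, TJP3 and F11R its libraries overlapped those of UTX_FGFR3WT, the next group. For TJP1, and for CLDN3 as well, every group overlapped its neighbour in the order.

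In full medium, UTX lowered CLDN1, CLDN3, CLDN7, OCLN and TJP1 and raised TJP3 and F11R. Of the 9 members, 2 were called higher and 5 lower at an adjusted p under 0.05 in edgeR's quasi-likelihood test, where 28.4% of all 19629 genes tested were called higher and 29.2% lower. CLDN3 and CLDN7 were called with at least a 2-fold difference, as 10.6% of genes were. The median log2 fold change of the members was -0.13, and that of all genes was 0.040.

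CLDN1, a strand-forming claudin that mice need for the water barrier of the skin, was at 404, 418 and 387 CPM in UTX_full libraries, against 739, 743 and 738 CPM in EV_full libraries. The groups lay far apart, with a log2 fold change of -0.88 ± 0.034 (SE), adjusted p = 5.36e-15. Values in parentheses after the levels give this log2 fold change, its SE and its adjusted p for each gene in turn. CLDN3, a claudin that binds Clostridium perfringens enterotoxin, was at 0.813, 0.993 and 0.879 CPM in UTX_full and 3.01, 2.99 and 3.02 in EV_full. Every UTX library was below every EV library (-1.75 ± 0.24, adjusted p = 2.01e-06), on 25 to 28 counts per UTX library and 85 to 122 per EV library. CLDN7, a claudin also found along the lateral membrane, was at 83.1, 81.8 and 78.5 CPM in UTX_full and 166, 178 and 176 in EV_full (-1.10 ± 0.044, adjusted p = 9.28e-15). OCLN, a tetraspan MARVEL protein of the strands, was at 21.9, 22.8 and 23.0 CPM in UTX_full and 42.8, 44.1 and 41.1 in EV_full (-0.92 ± 0.046, adjusted p = 2.65e-13). For both genes the UTX libraries were all below the EV libraries. CLDN4, another receptor of that enterotoxin, was at 278, 283 and 278 CPM in UTX_full and 274, 292 and 284 in EV_full. These groups overlapped (-0.022 ± 0.039, adjusted p = 0.665, 95% interval -0.10 to 0.060), and with library totals as the scale the sign turned (0.029).

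F11R, an immunoglobulin-like adhesion molecule, was at 330.2, 328 and 328 CPM in UTX_full and 270.5, 265 and 261 in EV_full, with all UTX libraries above (0.31 ± 0.033, adjusted p = 4.65e-08). TJP3, the scaffold ZO-3, was at 12.9, 13.0 and 12.1 CPM in UTX_full and 6.44, 7.35 and 5.78 in EV_full, a rise of 1.95-fold (0.96 ± 0.12, adjusted p = 7.55e-07). TJP1, the scaffold ZO-1, was at 785, 755 and 756 CPM in UTX_full and 848, 839.8 and 829 in EV_full. Its fall was small, 1.096-fold, though the groups did not overlap (-0.13 ± 0.030, adjusted p = 0.00069). CGN, which ties the junction to the cytoskeleton, was at 34.5, 33.9 and 36.3 CPM in UTX_full and 33.6, 33.1 and 32.9 in EV_full and was not called (0.074 ± 0.049, adjusted p = 0.203, 95% interval -0.027 to 0.18). In bulk RNA, fewer cells of a kind and less RNA per cell cannot be told apart. Of the epithelial markers, summed levels were 3637 to 3790.1 CPM in UTX_full and 5407 to 5632 in EV_full libraries, in which the basal keratin KRT5 averaged 167 ± 9.36 and 2285 ± 96.4 CPM. The other 5 did not all go the same way: CDH1 averaged 807 ± 41.3 CPM in UTX_full and 443 ± 9.48 in EV_full and KRT8 1577 ± 53.7 and 1463 ± 20.1, both higher with UTX. EPCAM averaged 141 ± 8.81 CPM in UTX_full and 174 ± 1.93 in EV_full, and KRT18 944 ± 41.2 and 992 ± 26.4. The urothelial markers summed to 1913 to 1985 CPM in UTX_full and 3063 to 3145 in EV_full. They did not all go the same way either. KRT13 averaged 1101 ± 24.5 CPM in UTX_full and 2488 ± 50.2 in EV_full, and KRT20, of low level, was lower with UTX too. UPK1B was higher with UTX, averaging 738 ± 19.6 CPM in UTX_full and 529.9 ± 12.1 in EV_full. UPK2 (30.2 ± 1.6 and 16.1 ± 0.624 CPM) and GATA3 also had higher means in UTX_full, and UPK1A was under 1 CPM in both groups. The part of these shifts in the member changes was not tested.

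In sphere medium UTX raised CLDN4, CLDN7, OCLN, F11R, TJP3 and CGN and lowered CLDN1. Thus 6 of 9 members were called higher and 1 lower, where 22.8% of all genes were called higher and 25.6% lower, with a member median of 0.43 and a median of -0.0083 over all genes. TJP3 alone passed with at least a 2-fold difference, as 8.75% of genes did.

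TJP3 was at 14.2, 14.97 and 14.1 CPM in UTX_sphere libraries, against 3.14, 2.68 and 1.49 CPM in EV_sphere libraries. This was the largest UTX difference of any member, 5.95-fold (2.57 ± 0.15, adjusted p = 4.2e-12), with no overlap. CLDN4 was at 309, 320.1 and 321 CPM in UTX_sphere and 186, 174 and 175 in EV_sphere (0.83 ± 0.040, adjusted p = 2.29e-13). CGN was at 48.6, 49.5 and 48.2 CPM in UTX_sphere and 30.5, 26.9 and 28.0 in EV_sphere (0.78 ± 0.050, adjusted p = 2.13e-11). In both genes each UTX library was well above each EV library. OCLN was at 40.5, 43.1 and 43.1 CPM in UTX_sphere and 28.2, 28.0 and 25.2 in EV_sphere (0.64 ± 0.046, adjusted p = 1.68e-10). CLDN7 was at 136, 139 and 137 CPM in UTX_sphere and 108, 99.98 and 97.9 in EV_sphere (0.43 ± 0.044, adjusted p = 4.35e-08). So CLDN7 and OCLN, lower with UTX in full medium, were higher with UTX in sphere medium.

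CLDN1 was at 337, 327 and 346 CPM in UTX_sphere and 461, 478 and 473 in EV_sphere, and it was lower with UTX in this medium too (-0.48 ± 0.034, adjusted p = 1.37e-10). F11R was at 391.6, 399.7 and 372 CPM in UTX_sphere and 356, 347 and 352 in EV_sphere, a rise of 1.103-fold (0.14 ± 0.033, adjusted p = 0.00106). TJP1 was at 575, 579 and 561 CPM in UTX_sphere and 583, 595 and 614 in EV_sphere and, though every UTX library was lower, was not called (-0.063 ± 0.030, adjusted p = 0.0958), with the other sign on library totals (0.045). CLDN3 was near its limit of detection, at 0.238, 0.384 and 0.430 CPM in UTX_sphere and 0.5003, 0.139 and 0.226 in EV_sphere, on 6 to 10 and 4 to 15 counts per library. Its groups overlapped (0.26 ± 0.41, adjusted p = 0.639, 95% interval -0.59 to 1.12), and without EV_sphere replicate 2 the difference had the other sign (-0.061, adjusted p = 0.925). Epithelial markers summed to 6395 to 6657 CPM in UTX_sphere and 14316 to 15350.1 in EV_sphere, and KRT5 averaged 3307 ± 195 and 12505 ± 539 CPM. Of the 6 markers 4 had a higher mean in UTX_sphere than in EV_sphere: CDH1 with 763 ± 26.1 and 484 ± 12.9 CPM, KRT8 with 1216 ± 29.4 and 839 ± 31.3, KRT18 with 864 ± 7.89 and 627 ± 31.4, and EPCAM with 174 ± 4.48 and 161 ± 8.30. The monocyte marker CD68 averaged 13.6 ± 0.704 CPM in UTX_sphere and 7.21 ± 0.988 in EV_sphere, with PTPRC under 1 CPM in every library group; their part in these changes was not tested.

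The difference between the UTX effects in the 2 media was itself tested as an interaction, UTX against EV in sphere medium minus the same in full medium. It was called positive for 7 of 9 members and negative for 1, where 21.1% of all genes were called positive and 16.2% negative. In 4 members it was at least 2-fold, as in 7.42% of genes. OCLN had an interaction of 1.56 ± 0.065, adjusted p = 8.7e-14, and CLDN7 one of 1.53 ± 0.063, adjusted p = 7.12e-14. These are the members whose UTX effect changed sign between the media with a call on each side. CLDN3 had the largest value, 2.01 ± 0.49, adjusted p = 0.00224, on few counts in sphere medium. TJP3 followed with 1.61 ± 0.20, adjusted p = 1.13e-06, where UTX raised the gene in both media and by more in sphere medium. CLDN4 (0.85 ± 0.056, adjusted p = 1.14e-10) and CGN (0.70 ± 0.069, adjusted p = 5.14e-08) were called higher with UTX in sphere medium and not called in full medium. For CLDN1 the interaction of 0.40 ± 0.048, adjusted p = 1.09e-06 meant a smaller fall in sphere medium. For F11R it was -0.17 ± 0.046, adjusted p = 0.00668, a smaller rise in sphere medium, and this call was lost when no low-count filter was used (-0.10, adjusted p = 0.395). TJP1 was not called (0.070 ± 0.043, adjusted p = 0.219, 95% interval -0.019 to 0.16). KDM6A averaged 859.8 ± 14.9 CPM in UTX_sphere and 579 ± 12.7 in UTX_full, without overlap. Medium and level of the construct cannot be told apart in this interaction, and the part of the level was not tested.

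**Figure D2:**
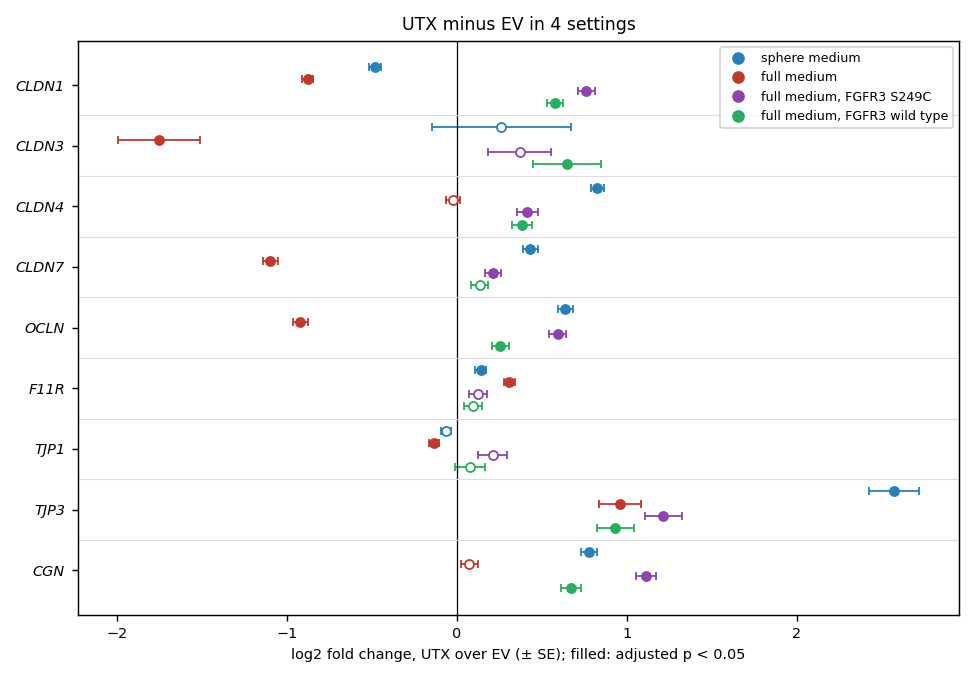
Log2 fold change of UTX over EV (± SE, 3 libraries per group) for each member in sphere medium, in full medium, and in full medium with FGFR3 S249C or wild type FGFR3; filled points have an adjusted p under 0.05. CLDN7 was at 0.43 in sphere medium and -1.10 in full medium, OCLN at 0.64 and -0.92, and TJP3 was above 0 in all 4 settings.

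HEAA was set against the same EV libraries as UTX, so the results of the 2 constructs are not independent of each other. In full medium HEAA raised TJP3, F11R and CGN and lowered CLDN1, CLDN3, CLDN7, OCLN and TJP1. Thus 3 members were called higher and 5 lower, where 23.2% of all genes were called higher and 25.3% lower. No member reached 2-fold. The member median was -0.15, and the median of all genes 0.027. CLDN1 was at 529.8, 515 and 537 CPM in HEAA_full, below EV_full at 740.3 ± 2.75 (-0.49 ± 0.034, adjusted p = 1.33e-10). CLDN3 was at 1.38, 1.94 and 1.27 CPM in HEAA_full, against 3.01 ± 0.0188 in EV_full (-0.98 ± 0.23, adjusted p = 0.00106). CLDN7 was at 107, 117 and 119.9 CPM in HEAA_full and 174 ± 6.42 in EV_full (-0.60 ± 0.044, adjusted p = 2.79e-10). All 3 claudins were lower in every HEAA library than in any EV library. OCLN was at 32.0, 31.0 and 31.8 CPM in HEAA_full and 42.7 ± 1.54 in EV_full (-0.43 ± 0.044, adjusted p = 4.24e-08). TJP3 was at 11.1, 10.1 and 10.1 CPM in HEAA_full and 6.52 ± 0.790 in EV_full (0.68 ± 0.13, adjusted p = 0.000118). Neither gene overlapped between the groups. CGN was at 35.8, 40.2 and 37.4 CPM in HEAA_full and 33.2 ± 0.389 in EV_full, a small rise (0.19 ± 0.048, adjusted p = 0.00261). F11R had 0.19 ± 0.033, adjusted p = 4.66e-05 and TJP1 -0.15 ± 0.030, adjusted p = 0.000214. CLDN4 was not called (0.068 ± 0.039, adjusted p = 0.166), though it was on library totals (0.12, adjusted p = 0.0112).

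In sphere medium HEAA raised 5 members and lowered 1, where 19.9% of all genes were called higher and 21.5% lower. TJP3 passed 2-fold, as 7.01% of genes did. TJP3 was at 10.8, 8.70 and 9.51 CPM in HEAA_sphere, against 2.43 ± 0.850 in EV_sphere, 4.01-fold higher (2.00 ± 0.15, adjusted p = 5.22e-10). CLDN4 was at 287, 263 and 278 CPM in HEAA_sphere and 179 ± 6.86 in EV_sphere (0.63 ± 0.040, adjusted p = 3.11e-11). CGN was at 45.4, 45.9 and 42.8 CPM in HEAA_sphere and 28.4 ± 1.85 in EV_sphere (0.65 ± 0.049, adjusted p = 4.66e-10). In these 3 genes every HEAA library was above every EV library. OCLN was at 37.8, 38.3 and 39.1 CPM in HEAA_sphere and 27.1 ± 1.67 in EV_sphere (0.50 ± 0.045, adjusted p = 8.9e-09). CLDN7 was at 125, 120.4 and 123 CPM in HEAA_sphere and 102 ± 5.15 in EV_sphere (0.27 ± 0.044, adjusted p = 2.98e-05). Both stood between their EV_sphere and UTX_sphere levels. CLDN1 was at 471, 483 and 457 CPM in HEAA_sphere and 471 ± 8.86 in EV_sphere, with overlapping groups and a difference of -0.0012 ± 0.034, adjusted p = 0.986 (95% interval -0.072 to 0.070), whose sign depended on the scaling. TJP1 was called lower (-0.11 ± 0.030, adjusted p = 0.00543), a call lost without any 1 of HEAA_sphere replicate 1 and EV_sphere replicate 3 (adjusted p between 0.0572 and 0.0895). It was lost too on library totals (-0.014, adjusted p = 0.759) and when no low-count filter was used (-0.083, adjusted p = 0.271). CLDN3 was not called (0.51 ± 0.38, adjusted p = 0.306), but was without EV_sphere replicate 1 (1.17, adjusted p = 0.0287). F11R was not called (0.038 ± 0.033, adjusted p = 0.39, 95% interval -0.030 to 0.11).

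The markers were read in HEAA and EV cells as well. KRT5 averaged 478 ± 28.99 CPM in HEAA_full and 2285 ± 96.4 in EV_full, and 5992 ± 193 in HEAA_sphere and 12505 ± 539 in EV_sphere. CD68 averaged 6.11 ± 0.221 CPM in HEAA_full and 2.38 ± 0.299 in EV_full, and 12.8 ± 0.636 in HEAA_sphere and 7.21 ± 0.988 in EV_sphere. The epithelial markers summed to 3789 to 3955 CPM in HEAA_full and 5407 to 5632 in EV_full, and to 8490.0 to 8987 in HEAA_sphere and 14316 to 15350.1 in EV_sphere, while the mean of CDH1 was higher with HEAA in both media. The leukocyte markers summed to 6.10 to 6.58 CPM in HEAA_full and 2.65 to 3.02 in EV_full, and to 12.3 to 13.5 in HEAA_sphere and 6.14 to 8.10 in EV_sphere. Their part in the member changes was not tested.

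The HEAA by medium interaction was positive for 7 members and negative for 1, where 18.7% of all genes were called positive and 14.3% negative, and at least 2-fold for CLDN3 and TJP3, as for 5.56% of genes. TJP3 had 1.32 ± 0.20, adjusted p = 2.61e-05, OCLN 0.93 ± 0.063, adjusted p = 3.45e-10 and CLDN7 0.87 ± 0.062, adjusted p = 7.23e-10. OCLN and CLDN7 again had a fall in full medium and a rise in sphere medium. CLDN4 had 0.56 ± 0.056, adjusted p = 9.91e-08, CLDN1 0.49 ± 0.048, adjusted p = 9e-08 and CGN 0.46 ± 0.069, adjusted p = 2.03e-05. CLDN3 had 1.495 ± 0.44, adjusted p = 0.0119, a call lost without HEAA_sphere replicate 1 (adjusted p = 0.0765). F11R had -0.15 ± 0.046, adjusted p = 0.014, a call lost without any 1 of HEAA_sphere replicates 1, 2 and 3, HEAA_full replicates 1 and 3, EV_sphere replicate 1 and EV_full replicates 1, 2 and 3 (adjusted p between 0.0622 and 0.151), on library totals (adjusted p = 0.0646) and when no low-count filter was used (adjusted p = 0.455). KDM6A averaged 942 ± 15.3 CPM in HEAA_sphere and 693 ± 7.33 in HEAA_full, so medium and construct level cannot be told apart here either.

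UTX and HEAA were then compared directly. The constructs differ in the catalytic site and also in the level of KDM6A. It averaged 579 ± 12.7 CPM in UTX_full and 693 ± 7.33 in HEAA_full, and 859.8 ± 14.9 in UTX_sphere and 942 ± 15.3 in HEAA_sphere, without overlap. Site and level cannot be told apart here, and the part of the level was not tested. In full medium UTX lowered CLDN1, CLDN3, CLDN7 and OCLN below their HEAA levels and F11R was higher: 1 member was called higher and 4 lower, where 8.94% of all genes were called higher and 12.4% lower. CLDN1 averaged 403 ± 15.4 CPM in UTX_full and 527 ± 11.1 in HEAA_full (-0.39 ± 0.034, adjusted p = 6.08e-08). CLDN7 averaged 81.1 ± 2.36 CPM in UTX_full and 115 ± 6.51 in HEAA_full (-0.50 ± 0.045, adjusted p = 7.68e-08). OCLN averaged 22.5 ± 0.551 CPM in UTX_full and 31.6 ± 0.486 in HEAA_full (-0.49 ± 0.048, adjusted p = 2.64e-07). In these 3 genes the HEAA libraries lay between the UTX and the EV libraries without touching either group. CLDN3 averaged 0.895 ± 0.0913 CPM in UTX_full and 1.53 ± 0.359 in HEAA_full (-0.77 ± 0.26, adjusted p = 0.0378). This call was lost without any 1 of UTX_full replicates 1, 2 and 3 and HEAA_full replicates 1 and 2 (adjusted p between 0.0526 and 0.192) and with the replicate number as a block (adjusted p = 0.051). F11R was 1.08-fold higher in UTX_full (0.12 ± 0.033, adjusted p = 0.0131), and this call was lost without HEAA_full replicate 2 (adjusted p = 0.0604) and when no low-count filter was used (adjusted p = 0.185). TJP3 (0.28 ± 0.12, adjusted p = 0.105, 95% interval 0.033 to 0.53), CGN (-0.11 ± 0.049, adjusted p = 0.106, 95% interval -0.22 to -0.013), CLDN4 (-0.089 ± 0.039, adjusted p = 0.12, 95% interval -0.17 to -0.0075) and TJP1 (0.020 ± 0.030, adjusted p = 0.713, 95% interval -0.043 to 0.083) were not called.

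In sphere medium 5 members were called higher in UTX than in HEAA cells and 1 lower, where 8.87% of all genes were called higher and 11.2% lower. CLDN1 averaged 337 ± 9.34 CPM in UTX_sphere and 470.3 ± 13.2 in HEAA_sphere (-0.48 ± 0.034, adjusted p = 3.46e-09). For CLDN1 in sphere medium, then, HEAA and EV libraries shared a range and the UTX libraries lay below both. TJP3 averaged 14.4 ± 0.466 CPM in UTX_sphere and 9.65 ± 1.04 in HEAA_sphere (0.57 ± 0.12, adjusted p = 0.00191). CLDN4 averaged 317 ± 6.75 CPM in UTX_sphere and 276 ± 12.3 in HEAA_sphere (0.20 ± 0.039, adjusted p = 0.00105). These 2 genes kept their calls without any 1 of the libraries. CLDN7 (0.16 ± 0.044, adjusted p = 0.0139) lost its call without any 1 of UTX_sphere replicates 1, 2 and 3 and HEAA_sphere replicates 2 and 3 (adjusted p between 0.0504 and 0.101). OCLN (0.14 ± 0.044, adjusted p = 0.0339) lost its call without any 1 of UTX_sphere replicates 2 and 3 and HEAA_sphere replicates 1, 2 and 3 (adjusted p between 0.075 and 0.199), in DESeq2 (adjusted p = 0.0768) and when no low-count filter was used (adjusted p = 0.14). F11R (0.10 ± 0.033, adjusted p = 0.0296) lost its call without any 1 of UTX_sphere replicates 1 and 2 and HEAA_sphere replicates 1, 2 and 3 (adjusted p between 0.0976 and 0.305), on DESeq2's size factors (adjusted p = 0.0512) and when no low-count filter was used (adjusted p = 0.227). So 3 of the 5 higher calls were near the threshold and were lost when any of several libraries was left out. CGN (0.13 ± 0.047, adjusted p = 0.0651, 95% interval 0.028 to 0.22), TJP1 (0.047 ± 0.030, adjusted p = 0.314, 95% interval -0.016 to 0.11) and CLDN3 (-0.25 ± 0.38, adjusted p = 0.719, 95% interval -1.05 to 0.54) were not called, and CLDN3 changed sign without HEAA_sphere replicate 1 (0.056, adjusted p = 0.962).

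**Figure D3:**
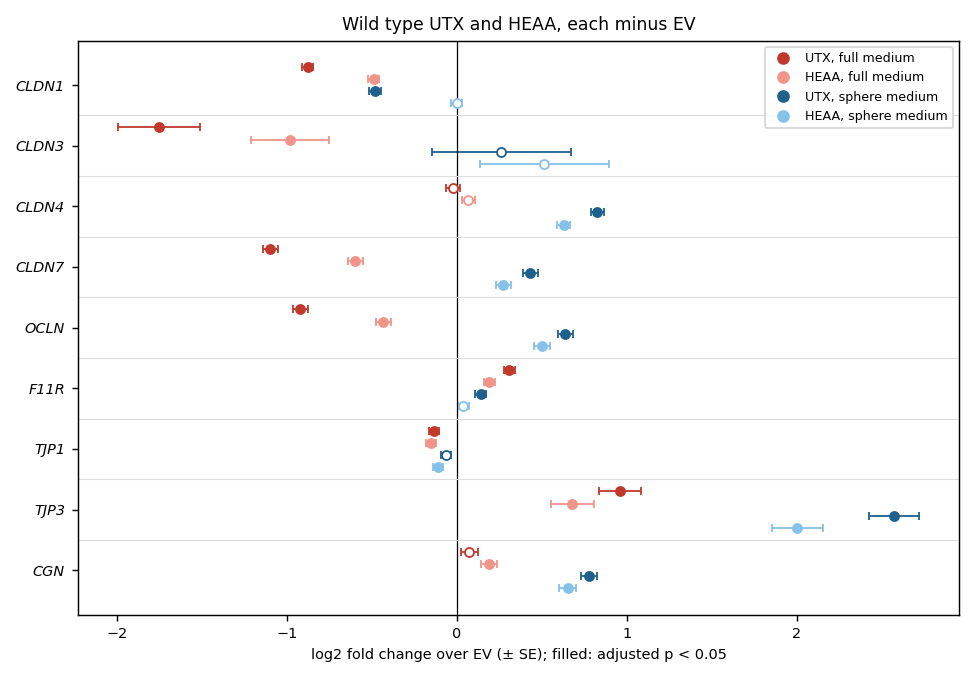
Log2 fold change over EV (± SE, 3 libraries per group) for wild type UTX and the double mutant HEAA in full medium and in sphere medium; filled points have an adjusted p under 0.05. For CLDN1, CLDN7 and OCLN in full medium the HEAA points (-0.49, -0.60 and -0.43) lie nearer to 0 than the UTX points (-0.88, -1.10 and -0.92); the constructs share their EV libraries.

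Sphere against full medium within EV cells lowered 8 of 9 members and raised F11R, where 33.1% of all genes were called higher and 32.4% lower. CLDN3 and TJP3 passed 2-fold, as 21.2% of genes did. The member median was -0.65 and the median of all genes -0.029. Scaling to library totals alone moved that median of all genes by -0.18, and no member changed its call here under it. CLDN3 averaged 0.289 ± 0.188 CPM in EV_sphere and 3.01 ± 0.0188 in EV_full, 10.2-fold lower (-3.36 ± 0.29, adjusted p = 1.14e-09). TJP3 averaged 2.43 ± 0.850 CPM in EV_sphere and 6.52 ± 0.790 in EV_full (-1.42 ± 0.16, adjusted p = 6.1e-08). CLDN7 averaged 102 ± 5.15 CPM in EV_sphere and 174 ± 6.42 in EV_full (-0.77 ± 0.044, adjusted p = 9.09e-13). CLDN4 (-0.67 ± 0.040, adjusted p = 1.99e-12), CLDN1 (-0.65 ± 0.034, adjusted p = 2.04e-13) and OCLN (-0.65 ± 0.045, adjusted p = 2.2e-11) fell by like amounts. TJP1 had -0.49 ± 0.030, adjusted p = 3.75e-12 and CGN -0.22 ± 0.050, adjusted p = 0.000517. F11R averaged 352 ± 4.64 CPM in EV_sphere and 265 ± 4.92 in EV_full (0.41 ± 0.033, adjusted p = 3.8e-10). The fibroblast marker LUM averaged 1.05 ± 0.0418 CPM in EV_sphere and 41.8 ± 4.51 in EV_full, while COL1A1 averaged 11.5 ± 0.821 and 5.30 ± 0.557, and the fibroblast markers summed to 12.1 to 13.8 and 44.0 to 53.9 CPM. KRT5 averaged 3307 ± 195 CPM in UTX_sphere and 167 ± 9.36 in UTX_full, 5992 ± 193 in HEAA_sphere and 478 ± 28.99 in HEAA_full, and 12505 ± 539 in EV_sphere and 2285 ± 96.4 in EV_full. Of the other epithelial markers, TP63 had a higher mean in sphere medium in the cells of each construct, and KRT8 and KRT18 a lower one. In EV cells KRT8 averaged 839 ± 31.3 CPM in EV_sphere and 1463 ± 20.1 in EV_full. TP63 averaged 387 ± 5.93 and 132 ± 5.32 there. CDH1 had a higher mean in sphere medium, and EPCAM a lower one, in EV cells alone. KDM6A was higher in sphere medium in UTX and HEAA cells. The part of these markers and of KDM6A in the medium results was not tested.

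In UTX cells sphere medium raised 5 members and lowered 3, where 35.1% of all genes were called higher and 35.4% lower. CLDN3 passed 2-fold, as 24.7% of genes did. OCLN averaged 42.2 ± 1.49 CPM in UTX_sphere and 22.5 ± 0.551 in UTX_full (0.91 ± 0.047, adjusted p = 1.84e-13). CLDN7 averaged 137 ± 1.63 CPM in UTX_sphere and 81.1 ± 2.36 in UTX_full (0.76 ± 0.045, adjusted p = 1.67e-12). CGN averaged 48.8 ± 0.669 CPM in UTX_sphere and 34.9 ± 1.22 in UTX_full (0.48 ± 0.048, adjusted p = 1.13e-08). These 3 genes, lower in sphere medium in EV cells, were higher there in UTX cells. F11R had 0.24 ± 0.033, adjusted p = 1.26e-06, and CLDN4 0.18 ± 0.039, adjusted p = 0.000335, a call lost on library totals (0.056, adjusted p = 0.17). CLDN3 averaged 0.351 ± 0.0999 CPM in UTX_sphere and 0.895 ± 0.0913 in UTX_full (-1.34 ± 0.34, adjusted p = 0.00143). TJP1 (-0.42 ± 0.030, adjusted p = 4.92e-11) and CLDN1 (-0.26 ± 0.034, adjusted p = 8.18e-07) were lower in sphere medium. TJP3 was not called (0.19 ± 0.12, adjusted p = 0.157, 95% interval -0.056 to 0.43).

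In HEAA cells sphere medium raised 4 members and lowered 4, where 34.4% of all genes were called higher and 36.3% lower. CLDN3 passed 2-fold, as 24.3% of genes did. CLDN3 averaged 0.406 ± 0.128 CPM in HEAA_sphere and 1.53 ± 0.359 in HEAA_full (-1.86 ± 0.29, adjusted p = 7.44e-06). OCLN averaged 38.4 ± 0.649 CPM in HEAA_sphere and 31.6 ± 0.486 in HEAA_full (0.28 ± 0.045, adjusted p = 9.62e-06). F11R (0.25 ± 0.033, adjusted p = 5.59e-07) and CGN (0.24 ± 0.048, adjusted p = 0.000118) were higher, and TJP1 (-0.45 ± 0.030, adjusted p = 1.71e-11) and CLDN1 (-0.17 ± 0.034, adjusted p = 0.000192) lower, the CLDN1 call being lost when no low-count filter was used (-0.11, adjusted p = 0.0515). The fall of TJP1 was nearly the same in UTX (-0.42) and EV cells (-0.49), and its interactions with medium were not called. CLDN7 was called higher (0.10 ± 0.044, adjusted p = 0.0476), but had the other sign on library totals (-0.034) and lost its call without HEAA_full replicate 1 (adjusted p = 0.095) and with the replicate number as a block (adjusted p = 0.062). CLDN4 was called lower (-0.11 ± 0.039, adjusted p = 0.0195), a call lost without any 1 of HEAA_sphere replicates 2 and 3 and HEAA_full replicates 1, 2 and 3 (adjusted p between 0.0558 and 0.503). DESeq2 (adjusted p = 0.119), its size factors (0.064) and the fit with no low-count filter (0.492) did not call it. TJP3 was not called (-0.099 ± 0.12, adjusted p = 0.48, 95% interval -0.35 to 0.16), and without HEAA_sphere replicate 2 its difference was 0.0054, adjusted p = 0.97.

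**Figure D4:**
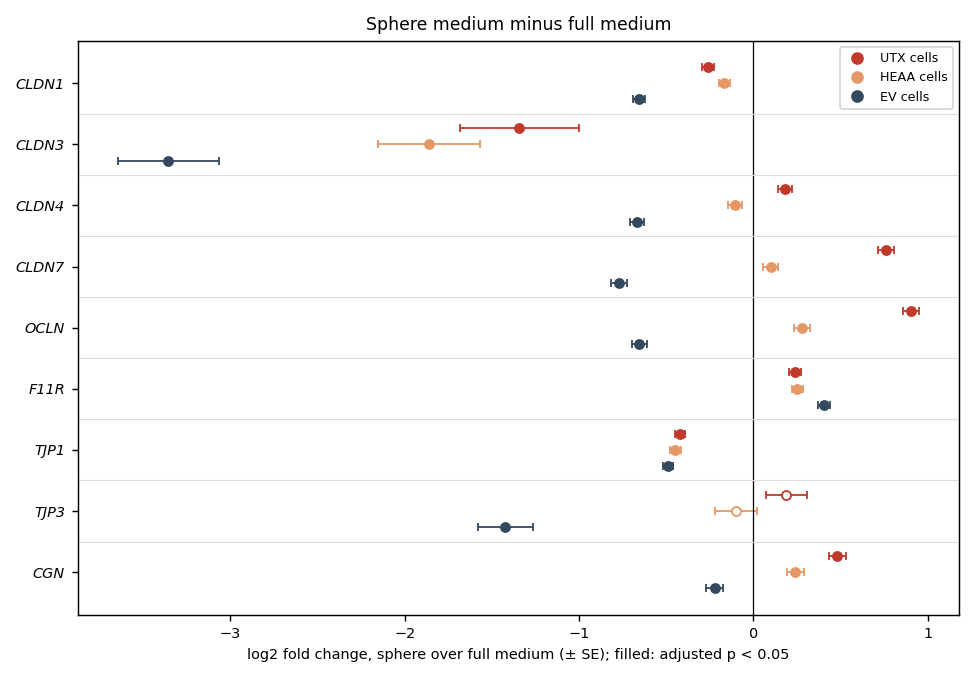
Log2 fold change of sphere over full medium (± SE, 3 libraries per group) in UTX, HEAA and EV cells; filled points have an adjusted p under 0.05. For OCLN the values were 0.91 in UTX, 0.28 in HEAA and -0.65 in EV cells, while TJP1 lay between -0.49 and -0.42 in all 3.

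The second experiment repeated the UTX comparison in full medium in cells with an FGFR3 vector. Beside FGFR3 S249C, UTX raised 6 of 9 members and lowered 0, where 12.9% of all 19399 genes tested were called higher and 8.62% lower. TJP3 and CGN passed 2-fold, as 2.32% of genes did. CGN was at 51.5, 46.2 and 46.0 CPM in UTX_FGFR3S249C libraries, against 20.4, 23.3 and 22.8 CPM in EV_FGFR3S249C libraries (1.11 ± 0.060, adjusted p = 9.47e-09). TJP3 was at 7.16, 6.67 and 7.80 CPM in UTX_FGFR3S249C and 3.05, 3.25 and 3.02 in EV_FGFR3S249C (1.21 ± 0.11, adjusted p = 1.33e-06). In both plaque genes the UTX and EV libraries lay far apart. CLDN1 was at 199.5, 209 and 207 CPM in UTX_FGFR3S249C and 114, 125 and 125 in EV_FGFR3S249C (0.76 ± 0.049, adjusted p = 4.64e-08). OCLN was at 44.6, 44.7 and 45.0 CPM in UTX_FGFR3S249C and 29.8, 28.7 and 30.5 in EV_FGFR3S249C (0.59 ± 0.050, adjusted p = 7.84e-07). CLDN4 was at 489, 480.2 and 574 CPM in UTX_FGFR3S249C and 377, 392.5 and 388 in EV_FGFR3S249C (0.42 ± 0.060, adjusted p = 0.000159). These 3 membrane genes were higher in all UTX libraries. CLDN7 was at 198, 191 and 215 CPM in UTX_FGFR3S249C and 167, 178 and 176 in EV_FGFR3S249C (0.21 ± 0.049, adjusted p = 0.00593). CLDN3 was at 3.05, 3.61 and 4.31 CPM in UTX_FGFR3S249C and 2.94, 2.10 and 3.44 in EV_FGFR3S249C, with overlap and no call (0.37 ± 0.18, adjusted p = 0.181, 95% interval -0.025 to 0.76).

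TJP1 was at 645, 637 and 491 CPM in UTX_FGFR3S249C and 474, 536 and 522 in EV_FGFR3S249C. Replicate 3 of UTX_FGFR3S249C lay within the EV range, and the difference was not called (0.21 ± 0.087, adjusted p = 0.102), but was without UTX_FGFR3S249C replicate 3 (0.32, adjusted p = 0.00162). That library also had the lowest KDM6A of its group (941, 946 and 699 CPM) and the highest CLDN3, CLDN4, CLDN7 and F11R. F11R was at 303, 315 and 349 CPM in UTX_FGFR3S249C and 294, 284 and 308 in EV_FGFR3S249C and was not called (0.13 ± 0.053, adjusted p = 0.112), but was without UTX_FGFR3S249C replicate 1 (0.18, adjusted p = 0.049).

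Beside wild type FGFR3, UTX again raised 6 members and lowered 0, where 9.06% of all genes were called higher and 6.01% lower. In neither setting was a member lower at an unadjusted p under 0.05 in edgeR or called lower by DESeq2. TJP3 was at 7.26, 6.99 and 6.94 CPM in UTX_FGFR3WT and 3.28, 3.63 and 4.18 in EV_FGFR3WT (0.93 ± 0.11, adjusted p = 2.31e-05). CGN was at 39.6, 38.7 and 40.2 CPM in UTX_FGFR3WT and 25.4, 24.5 and 24.6 in EV_FGFR3WT (0.67 ± 0.061, adjusted p = 2.12e-06). CLDN1 was at 209, 206 and 197 CPM in UTX_FGFR3WT and 135, 144 and 132 in EV_FGFR3WT (0.58 ± 0.049, adjusted p = 1.06e-06). The UTX_FGFR3WT and EV_FGFR3WT libraries did not overlap in these 3 genes. CLDN4 was at 475, 469.5 and 500.0 CPM in UTX_FGFR3WT and 373, 380.0 and 355 in EV_FGFR3WT (0.38 ± 0.060, adjusted p = 0.000396). OCLN was at 40.1, 40.5 and 37.2 CPM in UTX_FGFR3WT and 33.9, 31.3 and 33.4 in EV_FGFR3WT (0.26 ± 0.051, adjusted p = 0.0027). CLDN3 was at 3.29, 2.56 and 3.63 CPM in UTX_FGFR3WT and 2.11, 1.83 and 2.13 in EV_FGFR3WT (0.65 ± 0.20, adjusted p = 0.0396), and this call was lost without any 1 of UTX_FGFR3WT replicates 1 and 3 and EV_FGFR3WT replicates 1, 2 and 3 (adjusted p between 0.0883 and 0.159) and in DESeq2 (adjusted p = 0.0548). CLDN7 was at 176, 179.7 and 189 CPM in UTX_FGFR3WT and 167, 167 and 163 in EV_FGFR3WT. It was higher in every UTX library, yet not called (0.13 ± 0.049, adjusted p = 0.085, 95% interval 0.029 to 0.24). F11R was at 311, 313 and 327 CPM in UTX_FGFR3WT and 307, 293 and 289 in EV_FGFR3WT (0.097 ± 0.053, adjusted p = 0.265). TJP1 was at 668, 640.5 and 581 CPM in UTX_FGFR3WT and 573, 608 and 610.1 in EV_FGFR3WT, with overlapping groups (0.076 ± 0.087, adjusted p = 0.641, 95% interval -0.11 to 0.26).

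Leukocyte markers summed to 9.98 to 11.3 CPM in UTX_FGFR3WT and 14.3 to 16.8 in EV_FGFR3WT. Among them LYZ averaged 2.22 ± 0.258 CPM in UTX_FGFR3WT and 6.85 ± 0.670 in EV_FGFR3WT, CD3E 0.0260 ± 0.0450 and 1.83 ± 0.234, and CD68 8.27 ± 0.589 and 6.27 ± 0.480. Beside S249C LYZ averaged 2.02 ± 0.361 CPM in UTX_FGFR3S249C and 3.02 ± 0.509 in EV_FGFR3S249C, CD3E 0.0482 ± 0.0418 and 0.488 ± 0.0370, and CD68 7.47 ± 0.899 and 4.38 ± 1.15. KRT5 averaged 758 ± 5.18 CPM in UTX_FGFR3S249C and 1101 ± 11.9 in EV_FGFR3S249C, and 1168 ± 27.1 in UTX_FGFR3WT and 1933 ± 75.1 in EV_FGFR3WT. Of the other epithelial markers beside S249C, CDH1 averaged 600 ± 29.4 CPM with UTX and 390 ± 28.2 with EV. KRT18 averaged 1347 ± 76.5 and 1417 ± 35.5 there. Beside wild type FGFR3 CDH1 averaged 595 ± 16.7 and 441 ± 9.97 CPM, and KRT18 1210 ± 46.1 and 1258 ± 33.2. EPCAM had a higher mean with UTX beside both FGFR3 vectors. KRT8 and TP63 had higher means with UTX beside S249C and lower ones beside wild type FGFR3. The part of these markers in the results by UTX or by S249C was not tested.

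Set beside full medium in the first experiment, CLDN1 and OCLN had the opposite sign: CLDN1 was at 0.76 beside S249C and 0.58 beside wild type FGFR3, against -0.88 without an FGFR3 vector, and OCLN at 0.59, 0.26 and -0.92. CLDN3 and CLDN7, called lower with UTX in the first experiment, were above 0 in both settings of the second, with a call for CLDN3 beside wild type FGFR3 and for CLDN7 beside S249C. TJP3 was higher with UTX in each of these 3 settings. EV levels of CLDN1 themselves were 137 ± 6.01 CPM in EV_FGFR3WT and 740.3 ± 2.75 in EV_full, from tables scaled apart. The experiments differed in vector, kit and FGFR3, which cannot be told apart, and the difference between them was not tested.

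FGFR3 S249C was then set against wild type FGFR3. The S249C groups also held more FGFR3 RNA, with 2587 ± 44.2 CPM in UTX_FGFR3S249C and 1243 ± 47.4 in UTX_FGFR3WT. In EV cells it was 2322 ± 109 in EV_FGFR3S249C and 1300.5 ± 74.9 in EV_FGFR3WT. Mutation and receptor level cannot be told apart here, and the part of the level was not tested. In UTX cells 1 of 9 was called higher and 0 lower, where 1.71% of all genes were called higher and 1.34% lower. This was CGN, 47.9 ± 3.14 CPM in UTX_FGFR3S249C and 39.5 ± 0.775 in UTX_FGFR3WT (0.28 ± 0.058, adjusted p = 0.0151), a call lost without any 1 of UTX_FGFR3S249C replicate 1 and UTX_FGFR3WT replicates 1 and 2 (adjusted p between 0.0538 and 0.0768). OCLN averaged 44.8 ± 0.216 CPM in UTX_FGFR3S249C and 39.3 ± 1.82 in UTX_FGFR3WT, without overlap, and missed the threshold (0.19 ± 0.050, adjusted p = 0.0525). The other 7 ranged from -0.091 for TJP1 to 0.21 for CLDN3, all with adjusted p of at least 0.143. In EV cells 0 of 9 were called higher and 1 lower, where 4.31% of all genes were called higher and 6.45% lower. CLDN1 averaged 121 ± 6.39 CPM in EV_FGFR3S249C and 137 ± 6.01 in EV_FGFR3WT (-0.18 ± 0.049, adjusted p = 0.0318), a call lost without any 1 of EV_FGFR3S249C replicate 1 and EV_FGFR3WT replicates 1 and 2 (adjusted p between 0.0593 and 0.146), on library totals (adjusted p = 0.0507) and with only the compared groups in the fit (adjusted p = 0.051). The other 8 ranged from -0.25 for TJP3 to 0.48 for CLDN3, none called by edgeR. TJP1 averaged 511 ± 33.0 CPM in EV_FGFR3S249C and 597 ± 20.6 in EV_FGFR3WT (-0.23 ± 0.087, adjusted p = 0.116) and was called by DESeq2 (-0.23, adjusted p = 0.0487).

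The UTX by FGFR3 interaction, the UTX effect beside S249C minus that beside wild type FGFR3, was called positive for 2 members and negative for 0, where 0.572% of all genes were called positive and 0.113% negative. CGN had 0.44 ± 0.085, adjusted p = 0.0329: its UTX effect was 1.11 beside S249C and 0.67 beside wild type. OCLN had 0.34 ± 0.072, adjusted p = 0.0439, from 0.59 beside S249C and 0.26 beside wild type. Neither call was firm: CGN lost it without any 1 of UTX_FGFR3S249C replicate 1, UTX_FGFR3WT replicates 1, 2 and 3, EV_FGFR3S249C replicates 1 and 3 and EV_FGFR3WT replicates 1, 2 and 3 (adjusted p between 0.0503 and 0.0897) and with the replicate number as a block (adjusted p = 0.0621). OCLN lost it without any 1 of UTX_FGFR3S249C replicates 1 and 2, UTX_FGFR3WT replicates 1, 2 and 3, EV_FGFR3S249C replicates 1, 2 and 3 and EV_FGFR3WT replicates 1, 2 and 3 (adjusted p between 0.055 and 0.147), on library totals (adjusted p = 0.0787), with no low-count filter (0.0509) and with the block (0.0817). The other 7 members were not called, with intervals that ran from -0.86 (CLDN3) to 0.61 (TJP3).

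Other tight junction genes were read from 5 lists with 44 proteins: 19 other claudins, 5 MARVEL and tricellular proteins, 4 immunoglobulin-like proteins, 8 scaffolds and 8 polarity proteins. Of these, 34 were tested in the first experiment and 33 in the second. With UTX, 12 higher and 9 lower were called in full medium (28.4% higher and 29.2% lower over all genes) and 13 higher and 7 lower in sphere medium (22.8% higher and 25.6% lower over all genes). By list in full medium, the other claudins had 2 higher and 5 lower, the MARVEL and tricellular proteins 3 higher and 1 lower, the immunoglobulin-like proteins 0 higher and 1 lower and the polarity proteins 3 higher and 2 lower. No scaffold was called lower with UTX in either medium of the first experiment, 4 of 8 being higher in full and 5 of 8 in sphere medium. This was not so in the second experiment, described below. The multi-PDZ scaffold MPDZ averaged 15.5 ± 1.65 CPM in UTX_full and 6.15 ± 0.326 CPM in EV_full (1.34 ± 0.11, adjusted p = 1.56e-09), and 9.16 ± 1.03 CPM in UTX_sphere and 2.24 ± 0.619 CPM in EV_sphere (2.03 ± 0.15, adjusted p = 1.7e-10). PARD6B, a partner of atypical protein kinase C in polarity, averaged 16.9 ± 1.01 CPM in UTX_full and 9.57 ± 0.811 CPM in EV_full (0.81 ± 0.079, adjusted p = 1.12e-08), and 13.7 ± 1.11 CPM in UTX_sphere and 7.89 ± 0.593 CPM in EV_sphere (0.80 ± 0.086, adjusted p = 9.21e-08). Both were higher with UTX in each medium. CLDN9, a claudin of low level here, averaged 4.67 ± 0.365 CPM in UTX_full and 0.701 ± 0.104 CPM in EV_full (2.73 ± 0.24, adjusted p = 2.69e-09). CLDN15, a claudin of cation pores, averaged 2.29 ± 0.623 CPM in UTX_sphere and 3.96 ± 0.580 CPM in EV_sphere (-0.79 ± 0.18, adjusted p = 0.000725). The other named genes were ILDR2, an angulin-family protein (0.91 ± 0.14, adjusted p = 9.72e-06 in full medium), MARVELD3, a relative of occludin (-0.83 ± 0.067, adjusted p = 1.03e-09 in sphere medium), and CXADR, an immunoglobulin-like virus receptor (-0.43 ± 0.045, adjusted p = 4.3e-08 in full and -0.27 ± 0.047, adjusted p = 5.38e-05 in sphere medium).

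HEAA had 11 higher and 8 lower in full medium (23.2% higher and 25.3% lower over all genes) and 13 higher and 4 lower in sphere medium (19.9% higher and 21.5% lower over all genes) of these 34 genes. The genes with the largest calls per list were CLDN9 (2.54), ILDR2 (1.21), CXADR (-0.35), MPDZ (0.90) and PARD6B (0.40) in full medium. In sphere medium they were CLDN15 (-0.75), MARVELD3 (-0.76), CXADR (-0.26), MPDZ (1.28) and PARD6B (0.67). UTX against HEAA gave 5 higher and 1 lower in full medium (8.94% higher and 12.4% lower over all genes) and 5 higher and 1 lower in sphere medium (8.87% higher and 11.2% lower over all genes), and MPDZ was higher with UTX in both (0.44 ± 0.11, adjusted p = 0.00516 and 0.75 ± 0.13, adjusted p = 0.000265). PARD6B had 0.41 ± 0.077, adjusted p = 0.000589 in full and PARD6G, its paralog, -0.18 ± 0.041, adjusted p = 0.00359 in sphere medium. ESAM, an endothelial adhesion molecule of the same family as F11R, had -0.53 ± 0.17, adjusted p = 0.0304 in full medium, lost without any 1 of UTX_full replicates 1, 2 and 3 and HEAA_full replicates 1, 2 and 3 (adjusted p between 0.0561 and 0.132). LSR, an angulin of tricellular contacts, had 0.22 ± 0.051, adjusted p = 0.00395 in sphere medium, lost without any 1 of UTX_sphere replicate 2 and HEAA_sphere replicate 2 (adjusted p between 0.0629 and 0.073).

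Sphere against full medium gave 8 higher and 17 lower of the 34 genes in UTX cells (35.1% higher and 35.4% lower over all genes), 7 higher and 17 lower in HEAA cells (34.4% higher and 36.3% lower over all genes) and 10 higher and 18 lower in EV cells (33.1% higher and 32.4% lower over all genes). In HEAA cells the 17 lower were 11 in DESeq2 and 11 without the low-count filter. Of the 9 other claudins tested, 7 fell in UTX, 7 in HEAA and 6 in EV cells. CLDN11, the claudin of myelin and Sertoli cells, averaged 0.332 ± 0.0497 CPM in HEAA_sphere and 4.21 ± 0.308 CPM in HEAA_full (-3.64 ± 0.24, adjusted p = 1.31e-11). In EV cells it averaged 0.474 ± 0.241 CPM in EV_sphere and 8.05 ± 0.517 CPM in EV_full (-4.06 ± 0.21, adjusted p = 2.25e-13). CLDN9 led in UTX cells (-2.28 ± 0.24, adjusted p = 3.26e-08). PARD6G was the polarity gene with the largest change in the cells of each construct, and it was higher in sphere medium (0.54 in UTX, 0.69 in HEAA and 0.83 in EV cells). MPDZ was lower in sphere medium (-0.76 in UTX, -1.08 in HEAA and -1.46 in EV cells). ILDR2 had -1.67 in UTX and -1.51 in HEAA cells, MARVELD3 -0.74 in EV cells, and CXADR -0.14 in HEAA and -0.24 in EV cells. The CXADR call in HEAA cells was lost without any 1 of HEAA_sphere replicates 1 and 3 and HEAA_full replicates 1 and 3 (adjusted p between 0.0638 and 0.107).

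The UTX by medium interaction was called for 8 higher and 6 lower of the 34 (21.1% higher and 16.2% lower over all genes) and the HEAA one for 7 higher and 3 lower (18.7% higher and 14.3% lower over all genes). PRKCZ, an atypical protein kinase C, had negative values in both (-0.76 ± 0.073, adjusted p = 3.34e-08 for UTX and -0.58 ± 0.073, adjusted p = 2.27e-06 for HEAA). MARVELD3 (-0.31) and MPDZ (0.70) were the other leading genes for UTX, with CLDN11 (1.25 ± 0.39, adjusted p = 0.0152), a call lost without any 1 of UTX_sphere replicates 1 and 3 (adjusted p between 0.0787 and 0.0904). CLDN23 led the claudins for HEAA (1.02 ± 0.17, adjusted p = 6.88e-05). ILDR2 (0.69 ± 0.25, adjusted p = 0.0409) lost its call without any 1 of HEAA_sphere replicates 2 and 3, HEAA_full replicate 3, EV_sphere replicates 2 and 3 and EV_full replicate 1 (adjusted p between 0.0519 and 0.102). CGNL1, the paralog of cingulin (0.58 ± 0.21, adjusted p = 0.0338), lost its call without any 1 of HEAA_sphere replicate 1, HEAA_full replicates 1 and 2, EV_sphere replicates 1 and 3 and EV_full replicate 3 (adjusted p between 0.0508 and 0.0826).

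In the second experiment UTX gave 10 higher and 5 lower beside S249C (12.9% higher and 8.62% lower over all genes) and 3 higher and 4 lower beside wild type FGFR3 (9.06% higher and 6.01% lower over all genes) among 33 genes. CLDN9 was higher in both, as 4.78 ± 0.308 CPM in UTX_FGFR3S249C and 2.33 ± 0.429 CPM in EV_FGFR3S249C (1.04 ± 0.14, adjusted p = 6.23e-05) and 4.91 ± 0.188 CPM in UTX_FGFR3WT and 2.38 ± 0.237 CPM in EV_FGFR3WT (1.05 ± 0.14, adjusted p = 7.89e-05). MPDZ, higher with UTX in the first experiment, was lower beside S249C (14.95 ± 2.44 CPM in UTX_FGFR3S249C and 20.5 ± 1.37 CPM in EV_FGFR3S249C, -0.45 ± 0.095, adjusted p = 0.00313). Of the 8 scaffolds, 1 was called higher with UTX and 2 lower beside S249C, and 0 higher and 3 lower beside wild type FGFR3. MAGI3, a scaffold of the MAGUK family, had -0.56 ± 0.097, adjusted p = 0.000901 beside wild type FGFR3. LSR had 0.29 ± 0.067, adjusted p = 0.00635 beside S249C. ESAM had 0.42 ± 0.12, adjusted p = 0.0195, lost without any 1 of UTX_FGFR3S249C replicate 3 and EV_FGFR3S249C replicate 1 (adjusted p between 0.0822 and 0.0834). PARD6A had 0.55 ± 0.18, adjusted p = 0.0429, lost without any 1 of UTX_FGFR3S249C replicates 2 and 3 and EV_FGFR3S249C replicates 1 and 3 (adjusted p between 0.0749 and 0.178). PARD6G had 0.21 ± 0.067, adjusted p = 0.0469 beside wild type FGFR3, lost without any 1 of UTX_FGFR3WT replicates 1, 2 and 3 and EV_FGFR3WT replicates 1 and 3 (adjusted p between 0.0651 and 0.216).

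S249C against wild type FGFR3 gave 3 higher and 0 lower in UTX cells (1.71% higher and 1.34% lower over all genes) and 2 higher and 4 lower in EV cells (4.31% higher and 6.45% lower over all genes). CLDN11 was higher in both (0.48 ± 0.085, adjusted p = 0.00489 in UTX and 0.53 ± 0.078, adjusted p = 0.000527 in EV cells). CRB3, an apical polarity protein, had 0.29 ± 0.072, adjusted p = 0.0402 in UTX cells, lost without any 1 of UTX_FGFR3S249C replicates 1, 2 and 3 and UTX_FGFR3WT replicates 1, 2 and 3 (adjusted p between 0.0629 and 0.166). In EV cells MAGI1, another scaffold of that family, had -0.34 ± 0.069, adjusted p = 0.00555. CXADR had -0.18 ± 0.041, adjusted p = 0.0121 there, lost without EV_FGFR3S249C replicate 2 (adjusted p = 0.0505). PARD6G had -0.25 ± 0.068, adjusted p = 0.0262, lost without any 1 of EV_FGFR3S249C replicates 2 and 3 and EV_FGFR3WT replicates 1 and 2 (adjusted p between 0.0717 and 0.116). The UTX by FGFR3 interaction was called for 0 of the 33 genes by edgeR (0.572% higher and 0.113% lower over all genes), with 5 at an unadjusted p under 0.05, and for 1 by DESeq2.

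Transcription factors known to act on epithelial junction genes were read from a list of 13, of which 12 were tested in each experiment. With UTX, 1 higher and 7 lower were called in full medium (28.4% higher and 29.2% lower over all genes) and 1 higher and 6 lower in sphere medium (22.8% higher and 25.6% lower over all genes). GRHL3, a grainyhead factor of surface epithelium, averaged 2.19 ± 0.305 CPM in UTX_full and 20.4 ± 1.13 CPM in EV_full (-3.21 ± 0.086, adjusted p = 1.01e-17). ELF3, an ETS factor of differentiated epithelium, averaged 17.4 ± 0.749 CPM in UTX_sphere and 4.57 ± 0.663 CPM in EV_sphere (1.93 ± 0.081, adjusted p = 2.25e-14). The UTX by medium interaction was called for 4 higher and 3 lower (21.1% higher and 16.2% lower over all genes), led by GRHL3 (2.70 ± 0.11, adjusted p = 3.86e-14), and the HEAA by medium interaction for 3 higher and 2 lower (18.7% higher and 14.3% lower over all genes), led by ELF3 (1.43 ± 0.096, adjusted p = 3.22e-10). HEAA gave 1 higher and 6 lower in full (23.2% higher and 25.3% lower over all genes) and 2 higher and 6 lower in sphere medium (19.9% higher and 21.5% lower over all genes), led by GRHL3 in full medium (-1.51) and ELF3 in sphere medium (1.24). UTX against HEAA gave 1 higher and 3 lower in full medium (8.94% higher and 12.4% lower over all genes), led by GRHL3 (-1.71 ± 0.10, adjusted p = 2.04e-10), and 2 higher and 3 lower in sphere medium (8.87% higher and 11.2% lower over all genes), led by ELF3 (0.69 ± 0.069, adjusted p = 5.25e-07).

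Sphere medium also moved these factors. In EV cells ELF3 averaged 4.57 ± 0.663 CPM in EV_sphere and 104 ± 2.81 CPM in EV_full (-4.51 ± 0.065, adjusted p = 3.68e-23), with 6 higher and 4 lower on the list (33.1% higher and 32.4% lower over all genes). In HEAA cells ELF3 averaged 10.8 ± 0.568 CPM in HEAA_sphere and 91.6 ± 1.59 CPM in HEAA_full (-3.08 ± 0.057, adjusted p = 2.45e-21), with 7 higher and 4 lower (34.4% higher and 36.3% lower over all genes). In UTX cells the largest change was GRHL3 (27.7 ± 1.11 CPM in UTX_sphere and 2.19 ± 0.305 CPM in UTX_full, 3.65 ± 0.085, adjusted p = 1.18e-19), with 6 higher and 4 lower (35.1% higher and 35.4% lower over all genes). In the second experiment UTX gave 3 higher and 1 lower beside S249C (12.9% higher and 8.62% lower over all genes), where ELF3 averaged 24.5 ± 0.925 CPM in UTX_FGFR3S249C and 14.2 ± 1.30 CPM in EV_FGFR3S249C (0.79 ± 0.068, adjusted p = 9.96e-07). Beside wild type FGFR3 it gave 3 higher and 4 lower (9.06% higher and 6.01% lower over all genes), where GRHL3 averaged 2.86 ± 0.222 CPM in UTX_FGFR3WT and 4.61 ± 0.349 CPM in EV_FGFR3WT (-0.68 ± 0.14, adjusted p = 0.00312). S249C gave 0 higher and 1 lower in UTX cells (1.71% higher and 1.34% lower over all genes), the 1 being SNAI2, a repressor of epithelial genes (-0.27 ± 0.046, adjusted p = 0.00444), and 0 higher and 5 lower in EV cells (4.31% higher and 6.45% lower over all genes). There GRHL3 had -0.50 ± 0.13, adjusted p = 0.0276, lost without any 1 of EV_FGFR3S249C replicates 1 and 2 and EV_FGFR3WT replicates 1 and 2 (adjusted p between 0.078 and 0.117). The UTX by FGFR3 interaction was called for 2 higher and 0 lower (0.572% higher and 0.113% lower over all genes), with GRHL3 at 0.96 ± 0.19, adjusted p = 0.0354, lost without any 1 of UTX_FGFR3S249C replicates 1 and 2, UTX_FGFR3WT replicates 1, 2 and 3, EV_FGFR3S249C replicates 1 and 2 and EV_FGFR3WT replicates 1, 2 and 3 (adjusted p between 0.0545 and 0.106).

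For each member the gene most like it in pattern was sought among 9087 or 9088 other genes with a mean of at least 10 CPM in both experiments, by Pearson's r of log2 group means centred within each experiment, over 10 groups. The groups share libraries' scaling and kits, and r is given as a description. TJP3 was most like MVP (r = 0.992), F11R most like TOM1 (0.990), TJP1 most like TMEM50A (0.986), CLDN3 most like ALDH18A1 (0.983) and CLDN4 most like TOR1A (0.980). CLDN1 was most like FAM86C1 (0.965), CGN most like FERMT1 (0.933), CLDN7 most like MXRA7 (0.922) and OCLN most like another member, CLDN7 (0.900). Among pairs of members, CLDN4 and TJP3 (0.934) and CLDN7 and OCLN (0.900) were the closest, and CLDN3 and F11R ran in opposite directions (-0.845). OCLNP1, a partial copy of OCLN, held 24 counts over the 18 libraries of the first experiment, against 18214 for OCLN.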

How the data were processed

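RNA was sequenced from UMUC1 cells in 10 groups of 3 libraries. The authors deposited 1 table of estimated counts per gene for each experiment, made with Salmon 0.8 on hg19/GRCh37 per the submitters' processing notes, which also name DESeq2. Not given in the sources used here were the annotation release, how transcript estimates became gene values and what filtered the second table. The deposited estimated counts were rounded to whole numbers. In R 4.3.3, genes were filtered with filterByExpr and scaled with TMM factors, and edgeR 4.0.16 (with limma 3.58.1) fitted quasi-likelihood models with 1 mean per group to all groups of an experiment. F tests were adjusted by Benjamini-Hochberg over all genes tested, 19629 and 19399 in the 2 experiments, and called at 0.05. The SE is the absolute log2 fold change divided by the square root of F. Depth was 21672408 to 40111234 counts per library. Library values are CPM of the rounded counts, ± is the SD over 3 libraries for levels, and the SE for fold changes.

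The members, gene lists, marker lists and motifs were chosen with earlier results of these data known. From each list the text names, per comparison, the called gene with the largest absolute fold change among those averaging at least 2 CPM over the groups compared. The fit was tested on simulated data with known fold changes. Alternatives were DESeq2 1.42.0, its size factors in edgeR, library totals alone, no filter, fits of only the compared groups, a replicate block, and leaving out each library. Gene positions and lengths come from GENCODE v29 on GRCh38, and promoters from RefSeq on GRCh38.p14, which is not the build of the notes.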

Additional observations from a re-analysis of the deposited data

Results flagged for a closer look

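The UTX effect differed between the media by the interaction test for 8 of the 9 members, 7 positive and 1 negative. Over all genes 21.1% were called positive and 16.2% negative. The HEAA effect differed for the same numbers, where 18.7% of all genes were called positive and 14.3% negative. The differences (sphere minus full medium, log2) for UTX were 2.01 for CLDN3, 1.61 for TJP3, 1.56 for OCLN and 1.53 for CLDN7. They were 0.85 for CLDN4, 0.70 for CGN, 0.40 for CLDN1 and -0.17 for F11R. For HEAA they were 1.495 for CLDN3, 1.32 for TJP3, 0.93 for OCLN and 0.87 for CLDN7. They were 0.56 for CLDN4, 0.49 for CLDN1, 0.46 for CGN and -0.15 for F11R. The 2 sets share their EV libraries. KDM6A was higher in sphere than in full medium in UTX and in HEAA cells. Medium and construct level therefore cannot be told apart in either set. Both F11R calls were lost without the low-count filter, and the CLDN3 call for HEAA was lost without HEAA_sphere replicate 1.

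The UTX effect differed between the FGFR3 vectors (S249C minus wild type, log2) by 0.44 for CGN and 0.34 for OCLN, both near the threshold of the interaction test. Over all genes 0.572% were called positive and 0.113% negative.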

How the results depend on the processing

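Of 144 member values (9 genes in 16 comparisons), 139 kept direction and call with DESeq2, 141 with its size factors, 129 on library totals, 132 without the filter and 140 with the replicate block, as did 135 of 143 with only the compared groups fitted and 937 of 1026 with a library left out. CLDN1 with HEAA in sphere medium (-0.0012) was 0.011 on DESeq2 size factors, 0.094 on library totals, 0.012 in DESeq2, 0.026 without the filter, 0.0092 with only those groups, and -0.0041 to 0.028 over left-out libraries. Library totals also turned CLDN4 with UTX in full medium (0.029), TJP1 with UTX in sphere medium (0.045), CLDN7 by medium in HEAA cells (-0.034) and F11R by S249C in EV cells (0.019, and 0.0021 with only those groups). Over left-out libraries, values that changed sign ran from -0.061 to 0.90 for CLDN3 with UTX in sphere medium, -0.46 to 0.056 for CLDN3 against HEAA there, -0.16 to 0.0054 for TJP3 by medium in HEAA cells, and -0.029 to 0.022 for F11R by S249C in EV cells. In the UTX by FGFR3 interaction they ran from -0.055 to 0.080 for CLDN4 and -0.033 to 0.076 for F11R. For S249C in UTX cells they ran from -0.012 to 0.037 for CLDN1, -0.15 to 0.030 for TJP1, -0.027 to 0.088 for TJP3, -0.033 to 0.075 for F11R and -0.0028 to 0.20 for KDM6A. Counts of members called also moved. With HEAA in sphere medium the 1 lower became 0 on library totals and without the filter (0 to 1 over left-out libraries). Against HEAA the 1 higher in full medium became 2 with only those groups (0 to 1 over left-out libraries), and the 5 higher in sphere medium became 3 without the filter (2 to 3). By medium, the 4 lower in HEAA cells became 2 without the filter. The 1 lower of the UTX by medium interaction became 0 without the filter, and that of the HEAA by medium interaction 0 without the filter and on library totals (0 to 1). The 1 lower by S249C in EV cells became 0 on library totals and 2 in DESeq2 (0 to 1), and the 1 higher in UTX cells ran from 0 to 1. The 2 higher of the UTX by FGFR3 interaction became 1 on library totals and without the filter, 0 with the replicate block and 0 to 2 over left-out libraries. Over all genes, library totals gave 2694 lower with HEAA in sphere medium against 4212, and only the compared groups 966 lower with UTX beside S249C against 1672. The UTX by FGFR3 interaction had 111 positive and 22 negative calls over all genes, against 72 positive on library totals and 66 positive and 14 negative with the replicate block. Among the 44 other junction proteins, library totals gave 4 lower with UTX in sphere medium against 7, and 5 and 6 higher by medium in UTX and EV cells against 8 and 10. DESeq2, like the fit without the filter, gave 11 lower by medium in HEAA cells against 17 and 4 positive in the HEAA by medium interaction against 7. The replicate block gave 1 higher with UTX beside wild type FGFR3 against 3 and 1 higher by S249C in UTX cells against 3. With a library left out, those higher with UTX beside S249C fell to 6 against 10, and those higher against HEAA in sphere medium to between 1 and 3 against 5. Same-numbered libraries did not deviate together over all pairs of groups (median correlation -0.0077 in the first and -0.039 in the second experiment). Single same-numbered pairs ran from -0.22 to 0.17 in the first and from -0.35 to 0.44 in the second. Between UTX_FGFR3WT and UTX_FGFR3S249C they were 0.35, 0.075 and 0.44, and between EV_FGFR3S249C and UTX_FGFR3S249C -0.28, 0.080 and -0.35. A median therefore cannot show whether the numbers pair libraries of some groups. The block also lost CLDN3 against HEAA in full medium (adjusted p = 0.051), CLDN7 by medium in HEAA cells (0.062), and CGN (0.062) and OCLN (0.082) of the UTX by FGFR3 interaction. Without the filter CLDN1 by medium in HEAA cells was lost (adjusted p = 0.0515). Scaling to library totals moved the median of all genes by -0.13, -0.13 and -0.18 for sphere against full medium in UTX, HEAA and EV cells and by 0.11 for UTX in sphere medium. CLDN3 in sphere medium had 4 to 21 counts per library, which limits every value of it there. The cause of these shifts was not tested.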

Other observations

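Within the second experiment, where all libraries were in full medium, CLDN1 and TJP3 followed nearly the same pattern over the 4 groups (Pearson r = 0.999 of centred log2 group means), while over the 6 groups of the first experiment they did not (r = -0.395). CLDN3 and F11R likewise had r = 0.836 in the second and -0.962 in the first experiment. CLDN7 and OCLN were alike in both (0.865 in the second and 0.940 in the first). In the second experiment r was positive for every pair of members, from 0.061 (CLDN3 with TJP1) to the 0.999 above. CGN with F11R (0.992) and OCLN with CGN (0.991) were nearly as close there. A high r in that experiment was therefore not particular to the pairs named first. These values describe 4 and 6 group means and were not tested.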
